A study of Mus musculus with 8 samples.

Results

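The genes described here encode cytoplasmic ribosomal proteins and factors of the nucleolus, where ribosomes are made. They were taken by name from the array's annotation: the Rpl and Rps genes, the stalk proteins Rplp0, Rplp1 and Rplp2, and 12 nucleolar names. Of 27827 distinct names on the array, 89 matched, with 154 probes, of which 147 probes of 87 genes passed the filter on dim signals. These were 75 probes of 46 large subunit genes, 53 probes of 31 small subunit genes and 19 probes of 10 nucleolar genes. The probes of Rpl3l and Rpl39l, a pair of tissue-restricted paralogues, did not pass, and the names Nop56 and Nop58 had no probe.

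The samples were posterior parts of C57Bl6J/CBA mouse embryos, cut between the last formed somite and the allantois base, from Cdx2 null mutants and wild type embryos at 4/5 and at 7/8 somites. Each of the 4 pools held 20 embryos of 1 genotype and stage, and 300 ng of its RNA was amplified and labelled. Each stage has 4 arrays in 2 colours, and every one of them carries its null pool against its wild type pool: an original dye swap pair on one slide and a technical repeat of it on another. Cy3 marked the null pool on arrays 1 and 3 of each stage and Cy5 marked it on arrays 2 and 4. Cdx2 encodes a caudal homeodomain transcription factor. Embryos without it ordinarily fail at implantation, and neither the null allele nor how the null embryos were carried past that point is described in the labels. All values are log2 ratios of null over wild type unless a channel is named, and an SD given for a stage is that of its 4 arrays, which share 2 pools and therefore show technical spread.

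A ribosome joins a small subunit, which reads the messenger RNA, to a large subunit, which links amino acids. Ribosomal RNA is transcribed and processed in the nucleolus with the help of small nucleolar ribonucleoproteins, chaperones such as nucleolin and nucleophosmin, and the RNase MRP enzyme. Rapidly dividing embryonic cells spend much of their transcription on this machinery, and messages of ribosomal proteins are typically abundant and adjusted together.

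The label of the null pool was first checked on Cdx2 itself. Its probe gave -1.23 ± 0.12 (SD, 4 arrays) at 4/5 somites and -1.55 ± 0.05 at 7/8 somites, and limma called it lower over both stages (mean -1.39, SE 0.09, adjusted p = 1.65e-07). Whether that probe lies in the deleted part of the gene was not checked here. Signals of some marker genes of other cell types also differed between pools. The summed channel intensity of 8 visceral endoderm marker probes (Afp, Ttr, Apoa1, Apob, Amn and Cubn) was 7541 to 8583 in wild type and 12347 to 14086 in null at 4/5 somites, and 5826 to 6361 and 6056 to 7294 at 7/8 somites. Of these, 3 were called higher in null over both stages (Amn, Cubn and Apoa1). The sum of 4 endothelial probes was 1054 to 1289 against 839 to 1080 and then 1605 to 1892 against 973 to 993, with Pecam1 not well above background. Of these 4 endothelial probes, 1 was called lower in null over both stages and none higher. Primitive erythroid probes summed to 787 to 844 against 602 to 673 at 4/5 somites and to 8054 to 8312 against 6565 to 7824 at 7/8 somites (Gata1 not well above background). Of these 4 erythroid probes, 1 was called lower and none higher. The sum of 3 trophoblast probes was 727 to 765 against 796 to 872 and then 733 to 839 against 874 to 973 (Tpbpa not well above background). Of these 3 trophoblast probes, 2 were called higher in null over both stages and 1 was called lower. Of the 8 proliferation probes 1 was called lower (Top2a), none of the 4 neural probes was called, and of 7 caudal embryo probes Cdx2 and Msgn1 were called lower. For comparison, 4.94% of all probes that passed the filter were called higher and 3.48% lower. The caudal embryo probes, Cdx2 included, summed to 27103 to 30033 in wild type against 20305 to 21485 in null at 4/5 somites. At 7/8 somites their sums overlapped, at 23399 to 27589 against 24607 to 26253. The part of these cells in the results below was not tested. In such bulk samples, fewer cells of a type and less RNA per cell cannot be told apart.

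The 3 genes with the widest change in ratio between the stages are Ncl, Rmrp and Rps3a, and the sequences below are the array's own probes for them, 60 bases each, because other probes of Ncl and Rps3a behaved otherwise. Positions are on mm9, as the files give them, and the transcripts lie on the minus strand. The capitals mark the 40 bases that both Ncl probes share.
Ncl A_51_P134007 (chr1:88247953-88248012): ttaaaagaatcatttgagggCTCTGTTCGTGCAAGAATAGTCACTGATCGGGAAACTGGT
Ncl A_52_P623337 (chr1:88247602-88247992): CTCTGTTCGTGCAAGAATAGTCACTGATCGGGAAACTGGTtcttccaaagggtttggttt
Rmrp A_52_P2670 (chr4:43505692-43505751): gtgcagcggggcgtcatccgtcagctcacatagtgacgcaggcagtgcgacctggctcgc
Rps3a A_51_P292357 (chr3:85942027-85942458): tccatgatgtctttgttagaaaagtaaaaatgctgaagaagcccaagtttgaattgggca
The Ncl probe A_52_P623337 and the Rps3a probe are placed over 391 and 432 bases of genome, longer than the probes themselves, so each crosses a gap in the alignment to the genome.

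Ncl encodes nucleolin, the abundant nucleolar RNA-binding protein that helps ribosomal RNA transcription and early processing. With probe A_52_P623337, the 4 arrays of 4/5 somites gave -0.60, -0.45, -0.59 and -0.51, and those of 7/8 somites gave 1.09, 0.95, 1.12 and 0.98. With probe A_51_P134007 the values were -0.62, -0.52, -0.43 and -0.61, and then 1.24, 0.83, 1.20 and 0.74. All 4 arrays of 4/5 somites were below 0 and all 4 of 7/8 somites above it, for both probes and in both dye orders. The stage means were -0.54 ± 0.07 and 1.04 ± 0.08 for A_52_P623337, and -0.54 ± 0.09 and 1.0 ± 0.25 for A_51_P134007. The ratio at 7/8 somites was therefore 2.05-fold and 2-fold in favour of the null pool, whereas at 4/5 somites the null pool lay 1.45-fold and 1.46-fold below wild type. The ratios of the stages differed by 1.58 and 1.55 on the log2 scale, and by 1.55 and 1.60 on the original slide alone and 1.60 and 1.49 on the repeat slide alone. Since the directions oppose, the mean over both stages was not called (limma, means of 0.25 and 0.23, adjusted p = 0.593 and 0.625).

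The other two Ncl probes did not share this pattern. Probe A_52_P429650 (chr1:88247013-88247072) gave 0.26, -0.01, 0.01 and 0.06 at 4/5 somites and 0.05, 0.02, 0.01 and 0.12 at 7/8 somites. Probe A_52_P620748 (chr1:88241516-88241575) gave 0.17, 0.26, 0.08 and 0.42, and then 0.08, 0.13, 0.05 and 0.09. All 4 probes carry the same RefSeq transcript as their target in the files. Those with the stage pattern overlap by 40 bases and so are not independent measurements, and their mean log2 intensities were 15.04 and 14.52, where those of the other probes were 12.68 and 8.01; these brightness values are no levels and do not rank the probes. Why the probes of this gene differ was not tested.

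Channel values, which set a pool's own signal at one stage beside its signal at the other, placed the shift of both bright Ncl probes mainly in the null pools. In null, A_52_P623337 rose from 14.55 ± 0.12 to 15.78 ± 0.19 (log2 intensity, SD of 4 arrays) and A_51_P134007 from 14.01 ± 0.15 to 15.26 ± 0.24, without overlap of arrays. In wild type they went from 15.09 ± 0.17 to 14.74 ± 0.12 and from 14.55 ± 0.15 to 14.26 ± 0.03. The wild type difference of 0.35 and 0.29 below the earlier stage stayed short of 1.5-fold.

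**Figure D1:**
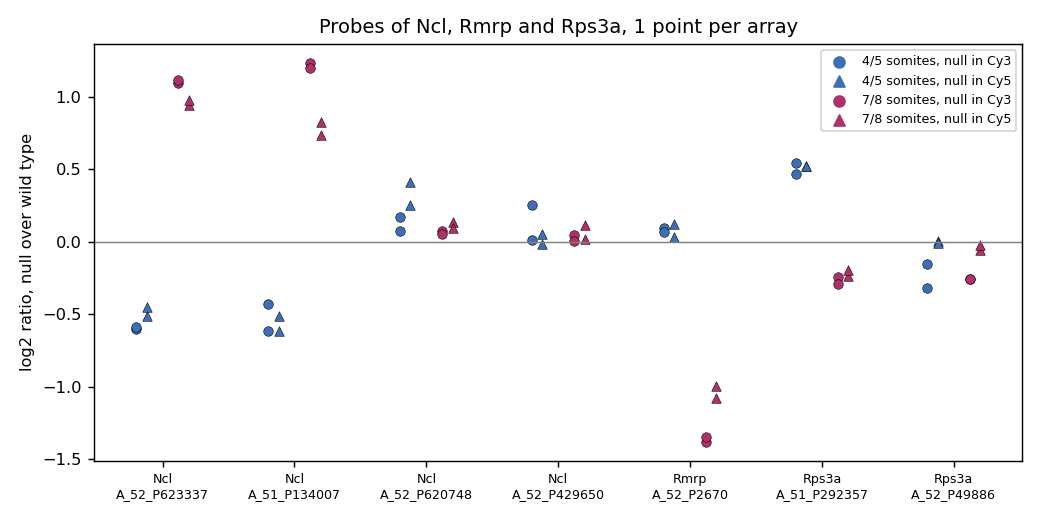
Log2 ratio of null over wild type (vertical axis) for each probe of Ncl, Rmrp and Rps3a, with 1 point per array, stage by colour and dye order by symbol. The overlapping pair of Ncl probes lies near -0.54 at 4/5 somites and near 1.04 and 1.0 at 7/8 somites, the other Ncl probes stay above or near 0, Rmrp drops to -1.20 on average and 1 of the 2 Rps3a probes changes sign.

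Rmrp is the RNA component of RNase MRP, the ribonucleoprotein that cleaves the precursor of ribosomal RNA. Its ratios were 0.10, 0.04, 0.07 and 0.12 at 4/5 somites and -1.38, -1.0, -1.35 and -1.08 at 7/8 somites. The pools thus lay within 0.12 of each other on every array of the earlier stage, and the null pool was lower on every array of the later stage. The stage means were 0.08 ± 0.04 and -1.20 ± 0.19, so the null pool was 2.30-fold lower at 7/8 somites. The difference between stages was -1.28, with -1.26 on the original slide and -1.31 on the repeat. In the channels, null fell from 11.85 ± 0.10 to 11.06 ± 0.08 and wild type went from 11.77 ± 0.08 to 12.26 ± 0.12, a difference of 0.49 that is under 1.5-fold. Over both stages limma gave a mean of -0.56 (SE 0.18, adjusted p = 0.071), which missed the threshold. This is 1 probe with no second probe to set beside it.

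Rps3a encodes a small subunit protein, listed as Rps3a1 in RefSeq. Its probe A_51_P292357 gave 0.55, 0.52, 0.47 and 0.52 at 4/5 somites and -0.24, -0.24, -0.29 and -0.19 at 7/8 somites, so all arrays were above 0 at the earlier stage and below it at the later one. The stage means of 0.52 ± 0.03 and -0.24 ± 0.04 were 1.69-fold apart. In the channels wild type went from 13.42 ± 0.06 to 13.98 ± 0.18 and null from 13.93 ± 0.05 to 13.74 ± 0.20. The second Rps3a probe, A_52_P49886, gave -0.12 ± 0.15 and -0.15 ± 0.13 and shows no such change.

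**Figure D2:**
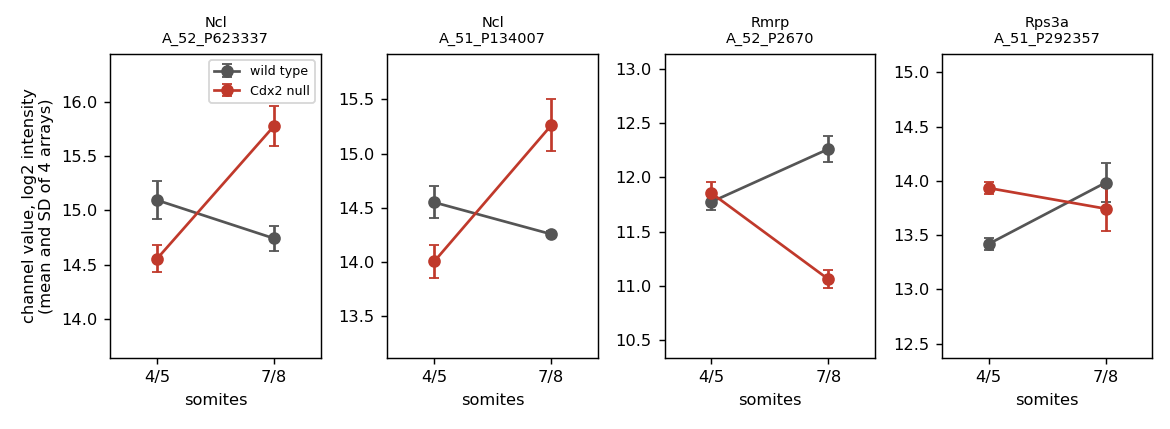
Channel values (log2 intensity after loess and Aquantile normalization, mean and SD of 4 arrays, vertical axis) of wild type and Cdx2 null pools at 4/5 and 7/8 somites for the 4 probes whose ratio changed between the stages. The axes span the same number of log2 units but start at different values. The lines cross for all 4 probes, and those of Rmrp start close together and then diverge.

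These 4 probes were the only members whose ratio differed between stages by at least 1.5-fold without overlap of arrays. Higher at 7/8 somites were both bright Ncl probes, against 0.726% of all 21907 kept probes. Rmrp and Rps3a were lower at 7/8 somites, against 0.329% of all probes. At 4/5 somites no member reached 1.5-fold with 1 sign on all 4 arrays (1.07% of all probes were higher and 0.954% lower by that rule). At 7/8 somites the 2 Ncl probes were higher, against a background of 1.21%, and Rmrp was lower, against 0.927%. With 1 pool per genotype and stage, none of these counts carries a test. With median centring in place of loess, the arrays of the stages overlapped by this rule for Ncl A_52_P623337, Rmrp and Rps3a, whose differences were then 1.55, -1.21 and -0.74, so only Ncl A_51_P134007 stayed past it.

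**Figure D3:**
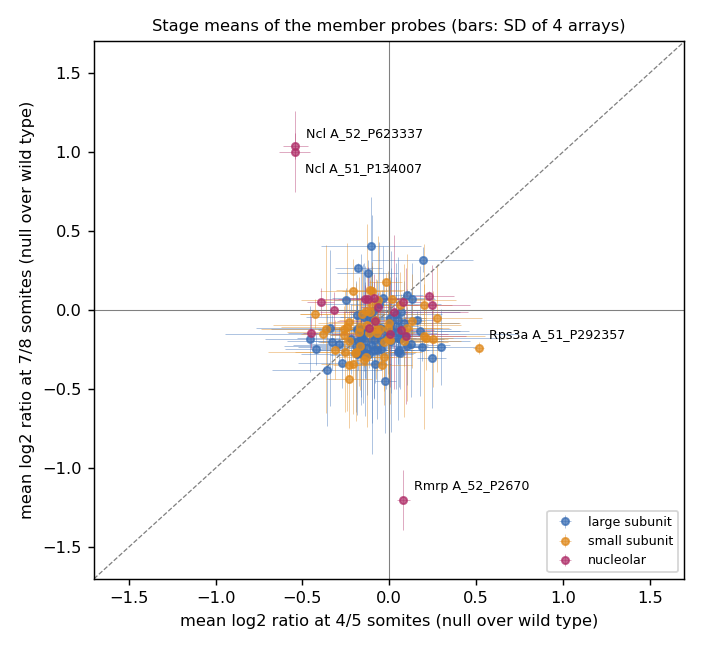
Mean log2 ratio at 4/5 somites (horizontal) against 7/8 somites (vertical) for the 147 member probes, with SD of 4 arrays as bars, coloured by class. Nearly all probes crowd around the origin, and the 4 labelled probes stand away from the dashed line of equal ratios.

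The remaining nucleolar genes stayed within 1.5-fold at both stages. Rrp9, a protein of the U3 small nucleolar ribonucleoprotein, had the lowest mean over both stages among them, at -0.41, -0.48, -0.43 and -0.50 at 4/5 somites and -0.05, -0.28, -0.07 and -0.18 at 7/8 somites. It was below 0 on all 8 arrays, but limma did not call it (mean -0.30, SE 0.09, adjusted p = 0.0591). Fbl, the methyltransferase of box C/D ribonucleoproteins, gave -0.12 ± 0.17 and 0.07 ± 0.20. Dkc1, the pseudouridine synthase of box H/ACA ribonucleoproteins, gave -0.32 ± 0.07 and -0.00 ± 0.12 with A_51_P469633, and -0.14 ± 0.24 and 0.07 ± 0.09 with A_52_P406828.

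Among the chaperones, Nolc1 gave -0.39 ± 0.08 and 0.05 ± 0.09 with A_52_P463109, and -0.08 ± 0.22 and -0.07 ± 0.12 with A_52_P89099. Npm1, which encodes nucleophosmin, stood at 0.10 ± 0.35 and -0.16 ± 0.43 (A_52_P732583) and at 0.00 ± 0.34 and -0.15 ± 0.33 (A_51_P467410), below 0 on the 4 arrays with null in Cy3 and above 0 on the 4 with null in Cy5. Bop1, Pes1 and Wdr12 form a complex needed for the large subunit's ribosomal RNA. Bop1 gave -0.07 ± 0.10 and 0.02 ± 0.08, the Pes1 probes 0.07 ± 0.19 and -0.12 ± 0.05 (A_51_P104456) and 0.03 ± 0.43 and -0.01 ± 0.49 (A_52_P347628). Wdr12 ranged over its 3 probes from -0.12 to 0.25 at 4/5 somites and from -0.12 to 0.08 at 7/8 somites. None of the 19 nucleolar probes was called over both stages by limma, and 2 of them, both lower, had an unadjusted p under 0.05.

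Under the older names Nol5 and Nol5a the array holds probes that stand outside the name rule but belong to the same ribonucleoproteins. Nol5, which RefSeq names Nop58, gave 0.06 ± 0.12 and -0.15 ± 0.09. Of the 2 Nol5a probes, A_51_P187902 gave -0.04 ± 0.06 and 0.03 ± 0.03, whereas A_52_P370685 went from -0.28 ± 0.06 to 0.38 ± 0.06.

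Over the members as a whole, differences were mostly small. Over both stages, 115 of the 147 member probes (78.2%) had a mean ratio below 0, against 52.3% of all kept probes, and the median was -0.09 against -0.01. With median centring in place of loess the members' share below 0 was 59.9%, and with the Cy5 arrays alone it was 43.2%. By stage the member median was -0.09 at 4/5 somites and -0.14 at 7/8 somites. Large and small subunit probes had the same median of -0.10, with 62 of 75 and 40 of 53 below 0, and the nucleolar probes had -0.03 with 13 of 19. A mean within 0.25 of 0 was found for 132 member probes (89.8%, against 87.8% of all). Among ribosomal protein probes the mean ran from -0.37 (Rpl27a) to 0.26 (Rpl21).

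With limma on the 2 stage means and Benjamini-Hochberg adjustment over all probes, 6 ribosomal protein probes fell and none rose, which is 4.08% of the members against 3.48% of all probes called lower and 4.94% called higher. The share called lower thus lies near the background. At an unadjusted p under 0.05, 36 of the 147 member probes were lower and 1 was higher. Of all 21907 kept probes, 2071 were lower and 2494 higher at that threshold. The 6 calls were Rpl27a, Rps26, Rpl21, Rplp0, Rpl37 and Rps3. The called probes of Rpl27a, Rpl21 and Rplp0 have no RefSeq transcript as their target in the files.

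Rps26, a small subunit protein at the messenger RNA exit, had 1 probe, with -0.36, -0.11, -0.34 and -0.12 at 4/5 somites and -0.73, -0.16, -0.68 and -0.18 at 7/8 somites (limma mean -0.33, SE 0.09, adjusted p = 0.0252). Every array was below 0, and those with the null pool in Cy3 lay furthest from it. Rps3, a small subunit protein at the messenger RNA entry, gave -0.24, -0.26, -0.10 and -0.32 and then -0.32, -0.37, -0.26 and -0.44 with probe A_52_P768 (limma mean -0.29, SE 0.09, adjusted p = 0.0488). It was the least dependent on dye order of the 6. Its second probe, A_51_P318642, averaged -0.06 and was not called.

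In the large subunit, Rpl37 gave -0.49, -0.02, -0.50 and -0.08 at 4/5 somites and -0.47, -0.21, -0.48 and -0.18 at 7/8 somites with A_52_P150675 (limma mean -0.30, adjusted p = 0.0345). Its other probe averaged -0.16 and was not called. Rpl27a, with A_51_P418662, gave -0.56, -0.07, -0.69 and -0.10 and then -0.69, -0.04, -0.68 and -0.11 (limma mean -0.37, adjusted p = 0.0113), while its second probe, A_51_P132459, averaged -0.01. For the called probes of both genes every array was below 0. At each stage the arrays with the null pool in Cy3 were lower than those with it in Cy5. Of the Rpl27a probes, only A_51_P132459 has a RefSeq transcript as its target.

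Rplp0, the scaffold of the acidic stalk that recruits translation factors, had 3 probes. A_51_P344103 gave -0.29, -0.69, -0.18 and -0.67 and then -0.00, -0.34, -0.01 and -0.39 (limma mean -0.32, adjusted p = 0.0373), with the lower values in Cy5. A_52_P586574 gave -0.84, 0.04, -0.55 and -0.02 and then -0.57, 0.29, -0.51 and 0.34, the opposite dye order. A_51_P134602 averaged -0.02. The other stalk proteins, Rplp1 and Rplp2, averaged -0.06 and 0.02.

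Rpl21 was the only gene whose kept probes differed in mean by 1.5-fold or more. A_52_P258959 was called lower, with -0.42 ± 0.18 and -0.24 ± 0.10 (limma adjusted p = 0.0244), and A_52_P653937 gave 0.19 ± 0.29 and 0.32 ± 0.08 (adjusted p = 0.0818). The files place them at chr5:147644677-147644736 and chr5:147648267-147648326, on the plus strand. Of the Rpl21 probes, only A_52_P653937 has a RefSeq transcript as its target. Over the 44 genes with several kept probes, the median gap between the highest and lowest mean was 0.12.

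The called ribosomal protein probes with a RefSeq transcript as target are shown for their sequence, which a reader may need to look for copies elsewhere in the genome.
Rps26 A_51_P302675 (chr10:128062363-128063147): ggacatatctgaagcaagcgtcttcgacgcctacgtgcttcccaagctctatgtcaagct
Rpl37 A_52_P150675 (chr15:5067361-5067420): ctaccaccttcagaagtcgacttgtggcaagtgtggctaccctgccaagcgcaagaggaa
Rps3 A_52_P768 (chr7:106630863-106631137): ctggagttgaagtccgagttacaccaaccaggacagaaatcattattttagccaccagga
Ribosomal protein genes have many processed copies in the mouse genome, and no genome was searched here, so a single probe's value may include near-identical transcripts. One member probe, of Rpl12, is placed by the files on chromosome 10 although RefSeq puts the gene on chromosome 2.

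These calls depended on the processing. No member was called when the spots with an uneven local background kept it (41 lower and 1 higher at an unadjusted p under 0.05). Such spots numbered 58 on array 1 of 4/5 somites and at most 38 on any other array. Nor was any member called without background correction (42 and 1) or with median centring in place of loess (10 and 4). Leaving out 1 array at a time gave between 1 and 11 calls, and each array's omission moved the count by more than 1.5 times, with the most calls without array 1 of 4/5 somites. The original slide alone gave 4 calls and the repeat alone 12. With 4 dye swap pairs and slide as a block limma called 22 members lower and 1 higher, and of all probes 1241 lower and 1869 higher, but that fit counts technical pairs as replicates.

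The member ratios differed by dye order. On arrays with the null pool in Cy3 the median over member probes was -0.23 and -0.17 at 4/5 somites and -0.29 on both arrays at 7/8 somites. On arrays with it in Cy5 the medians were 0.03, 0.01, 0.04 and 0.05. Over all kept probes no array's median departed from 0 by more than 0.02. With the Cy3 arrays alone limma called 27 member probes, all lower, where 583 of all probes were called higher and 588 lower. With the Cy5 arrays alone it called 10 member probes higher and 3 lower, where 1082 of all probes were higher and 699 lower.

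**Figure D4:**
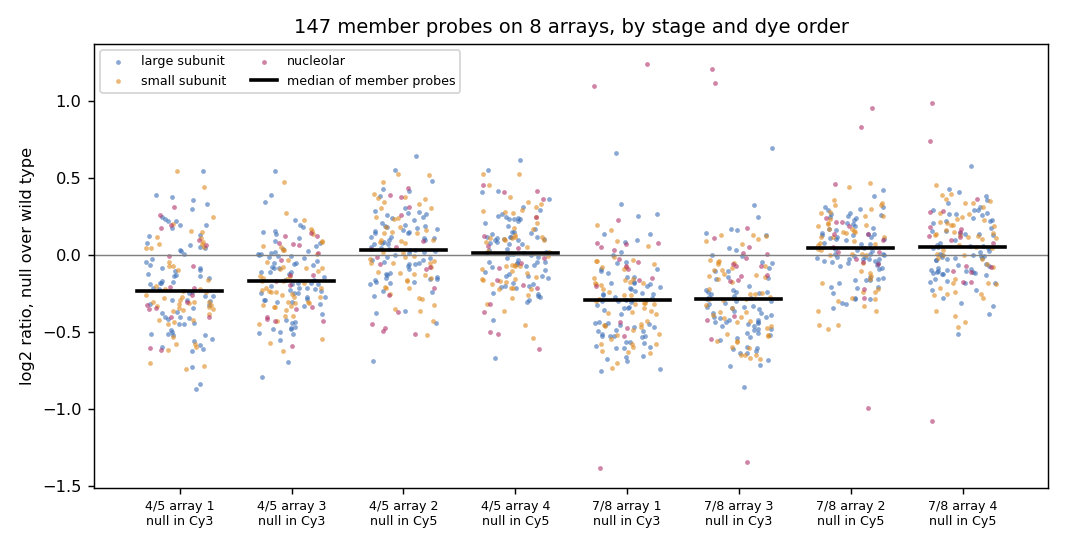
Log2 ratio of null over wild type (vertical axis) of the 147 member probes on each of the 8 arrays, grouped by stage and dye order, with the median as a bar. The medians lie between -0.29 and -0.17 with the null pool in Cy3 and between 0.01 and 0.05 with it in Cy5.

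For 77 of 147 member probes (52.4%) the ratio was higher with the null pool in Cy5 than in Cy3 without overlap at both stages, against 23.4% of all kept probes. The share differed by brightness. At a mean log2 intensity of at least 15, reached by 79 member probes (53.7%, against 1.26% of all), 77.2% did so, against 51.5% of the 196 other probes as bright. Below it 23.5% of member probes did so, against 23.0% of others. The reverse, lower with null in Cy5 without overlap at both stages, was also found for 16 of these 68 dimmer member probes. It was found for 3863 of the 21564 dimmer others and for 1 of the 79 bright members. The median difference between dye orders was 0.45 for bright members and 0.20 for bright non-members.

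Across the 128 ribosomal protein probes the dye order difference went with brightness (Pearson r = 0.50, Spearman rho = 0.72) and little with the GC content of the probe (r = 0.18). Over all 21907 kept probes the relation with brightness was near 0 (r = -0.04, rho = -0.06). Probes share the same arrays and are no independent samples, so the correlations are descriptions. Among ribosomal protein probes the widest differences were those of Rpl41 (1.38) and Rps23 (1.02), both among the brightest. Averaging both dye orders at each stage cancels an additive dye effect in the stage means, but the sign of the member median on 1 dye order alone was not that of the other.

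**Figure D5:**
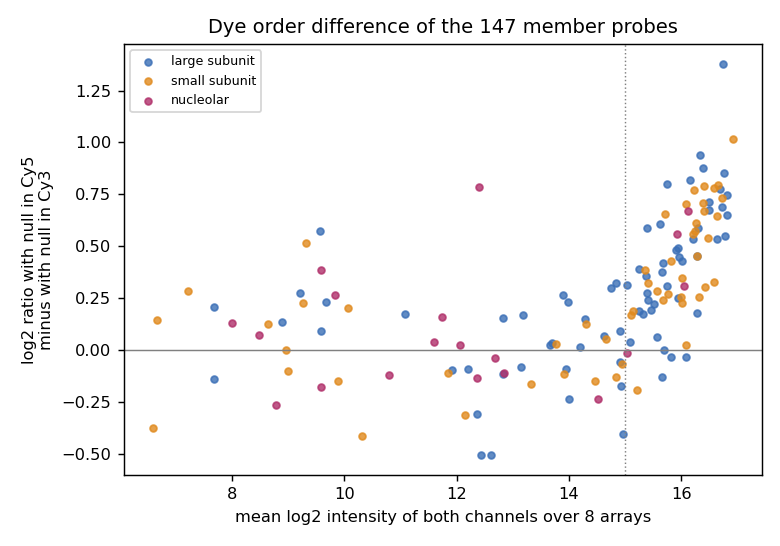
Difference between the log2 ratios of the dye orders (null in Cy5 minus null in Cy3, mean of both stages, vertical axis) against mean log2 intensity (horizontal axis) for the 147 member probes, by class. Above the dotted line at 15 most points lie above 0 and reach 1.38.

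Between the stages within 1 genotype, most member signals moved little. The median change of member probes from 4/5 to 7/8 somites was 0.04 in wild type and 0.02 in null (log2 channel values), against -0.01 and 0.01 over all kept probes. In wild type 2 member probes were at least 1.5-fold higher at 7/8 somites without overlap, against 0.612% of all, and none was lower, against 0.657%. These were 1 of 4 kept Rpl29 probes (A_52_P217069, from 9.29 ± 0.30 to 9.99 ± 0.10) and 1 of 3 Rpl36a probes (A_52_P197926, from 14.69 ± 0.48 to 15.44 ± 0.09). The other probes of these genes differed by 0.13 to 0.45 and by 0.01 to 0.14. Without array 3 of 4/5 somites the Rpl36a difference of 0.75 became 0.58, just under 1.5-fold.

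In null, 3 member probes were higher at 7/8 somites, against 0.844% of all, and Rmrp was lower, against 0.73%. Both bright Ncl probes are 2 of the 3. The third is Rpl4, a large subunit protein lining the exit tunnel, with a difference of 2.31 that rests on 1 spot. On array 3 of 4/5 somites its probe was not well above background in either channel, and without that array the difference was 0.37. In wild type, Rpl4 went from 11.61 ± 3.95 to 13.41 ± 0.24, with the same array included.

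A paralogue and an X-linked gene gave small values. Rps27l, a paralogue of Rps27 known as a p53 target, was below 0 on all 8 arrays, at -0.15 ± 0.06 and -0.32 ± 0.04 (limma mean -0.23, adjusted p = 0.125, not called). Rps4x, the X-linked small subunit gene, gave 0.25 ± 0.08 and -0.18 ± 0.30 with A_51_P267995, and its second probe was well above background on only some of the arrays.

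Genes of the wider pathway, from lists outside the name rule, were set beside the members with the same limma fit. Of 131 kept probes of 84 ribosome biogenesis genes, 7 fell (5.34%, against 3.48% of all kept probes) and 1 rose (0.763%, against 4.94%), with a list median of -0.06. Those that fell include Noc2l, a factor of large subunit assembly (1 of its 2 probes, -0.73 ± 0.08 and -0.23 ± 0.05, adjusted p = 0.00799), Ddx21, a nucleolar helicase (-0.44 ± 0.06 and -0.32 ± 0.38, adjusted p = 0.0104, 1 of its 3 probes), and Tcof1, the treacle protein that links RNA polymerase I to ribosomal RNA modification (-0.53 ± 0.10 and -0.23 ± 0.03, adjusted p = 0.0155). The 1 that rose was Gar1, a box H/ACA protein, with 0.01 ± 0.23 and 0.96 ± 0.13 (adjusted p = 0.0491).

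Of 27 kept probes of 16 genes of the RNA polymerase I machinery, 1 of 2 Twistnb probes fell (mean -0.33, limma adjusted p = 0.0221), which is 3.7% of the list, and none rose, at a median of -0.03. Among 36 probes of translation factors and other messages with a terminal oligopyrimidine tract, the start motif that ribosomal protein messages also carry, 3 rose (8.33%, against 4.94% of all kept probes) and none fell. These were 2 of 4 probes of Hnrnpa1 (means of 0.57 and 0.45) and 1 of 2 of Eef1a1, the elongation factor (0.40, limma adjusted p = 0.00856). Of 119 probes of mitochondrial ribosomal proteins 1 rose (Mrpl44, 0.84% of the list) and 2 fell (Mrpl2 and Mrps5, 1.68%), both shares under those of all kept probes, at a median of -0.06. Of 7 probes of the Myc family, whose products drive ribosome production, 1 of 2 Mycn probes rose (mean 0.29, limma adjusted p = 0.0444) and none of the 3 Myc probes was called.

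Start sites were examined in RefSeq's promoter table (build GRCm38.p6, 250 bases before to 50 after each start), which held 59 of the ribosomal protein genes and 6 of the nucleolar genes. An unbroken run of at least 8 C or T letters within the 30 bases from 10 before to 20 after the start was found in 33.9% of the ribosomal protein promoters and 11.2% of all 27025 promoters. The same run on the other strand (A or G letters) was found in 3.39% and 13.1%. None of the 6 nucleolar promoters had the C or T run. Among the called genes that the table held, Rps26 and Rpl27a had such a run, and Rplp0, Rpl37 and Rps3 did not. The start windows of Rps26 and of Ncl are shown with such a run in capitals where there is one.
Rps26 (chr10:128626487-128626516): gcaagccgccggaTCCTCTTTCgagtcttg
Ncl (chr1:86359436-86359465): cggggacggacgcgagctctggttggtgga
Both genes are on the minus strand of that build, and the letters read in the direction of transcription. The E-box letters CACGTG, a palindrome, were in 8.47% of the ribosomal protein promoters and 7.24% of all. The letters TTTATGG, a form of the caudal homeodomain motif, were searched on both strands and found in none of the 65 member promoters and in 2.76% of all. A match or its absence says only whether these letters are in the window.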

How the data were processed

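The deposited scanner files hold spot and local background brightness as intensity values with no normalization, together with a log10 ratio (Cy5 over Cy3) that the scanner software computed, per the file headers. Agilent Feature Extraction appears as 9.5.3 in the submitters' processing notes and as 10.5.1.1 in the header. In the deposited series matrix the log10 ratios equal the scanner's at all 45018 spots, signed as null over wild type. Mean signals were corrected with normexp (offset 50) and loess in limma 3.58.1 (R 4.3.3). Spots with an uneven local background received their array's median background, and 0.341% of non-control spots, marked as outliers, were left out. Probes well above background in 1 genotype on at least 3 of 4 arrays of a stage were kept (21907 of 41174). Precision is limited by the number of pools, 1 per genotype and stage, since the arrays of a stage repeat the same pools.

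The 4 arrays of a stage were averaged to 1 value. Calls over both stages used limma (lmFit, eBayes, two-sided) on 2 values a probe, at 0.05 after Benjamini-Hochberg adjustment over all kept probes, 1 residual degree of freedom and a prior of 14.9, so p-values reflect how the stages' pools differ and rest on a spread shared across probes. Within and between stages a size rule of 1.5-fold applied, with no test. Channel values followed loess and Aquantile. The fit was tested on simulated data with independent probes and no dye effect, which therefore do not bear on the dye order differences. Alternatives covered background, normalization, filter, probes, arrays, dye order and slide.

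Named genes were Cdx2, all nucleolar names, called ribosomal protein probes, the largest changes past the size rules, genes with disagreeing probes, and paralogue or X-linked genes; of the other lists, up to 3 called each way. The members and lists were chosen with earlier results of these data known.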

Additional observations from a re-analysis of the deposited data

Results flagged for a closer look

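The ratios of 9 member probes had opposite signs at the stages on every array (6.12% of the members, against 3.91% of all kept probes). The difference between stages was not tested for any of them. It was 1.58 and 1.55 (7/8 minus 4/5 somites, log2) for the Ncl probes A_52_P623337 and A_51_P134007, -1.28 for Rmrp and -0.76 for Rps3a A_51_P292357. Smaller differences of this kind were those of Rpl11 A_52_P566208 (0.45), Rpl36a A_52_P197926 (-0.53), Rpl30 (-0.42), Rpl24 A_51_P458575 (-0.33) and Rpl23a A_51_P127516 (-0.22). The second Rpl30 probe, A_52_P543471, went the same way, from 0.24 ± 0.09 to -0.30 ± 0.32, with 1 array of 7/8 somites at 0.01. Of the other Rpl36a probes, A_51_P283920 also went from 0.10 ± 0.09 to -0.23 ± 0.25, while A_52_P481880 stayed at -0.18 and -0.20.

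Among 60 groups of 4 arrays looked at for a value far from the others, 1 stood out. For Wdr12 A_51_P420955 at 7/8 somites, array 2 gave -0.22, while the other arrays lay between -0.09 and -0.07. Chance alone sets apart about 1 in 20 such groups.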

How the results depend on the processing

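The count of 6 members called over both stages changed under most settings. It was 0 with own background of uneven spots, without background correction and with median centring, 1 with the scanner's processed log ratio and 1 with no filter on dim probes. It was 27 with the null pool only in Cy3, 13 only in Cy5, 12 on the technical repeat, 23 with dye swap pairs and a slide block, and 3 over probes with a RefSeq accession (chosen after seeing the data). Leaving out 1 array gave 1 to 11. The limma adjusted p of the 6 ran from 0.00175 to 0.631 over all settings. The cause was not tested. Members past 1.5-fold at 4/5 somites numbered 8 with Cy3 only and 2 with Cy5 only, not 0, and at 7/8 somites 21 with Cy3 only, not 3. Between stages there were 1 with median centring, 2 with 1 probe per gene name and 10 with Cy3 only, not 4 (4 to 6 without 1 array). In the wild type channel there were 0 with 1 probe per gene name, 9 with Cy3 only, 8 on the original run and 0 at 2-fold, not 2 (1 to 6 without 1 array). With fewer arrays per stage, the rules on sign and overlap are easier to pass for any probe. The shares of all kept probes past 1.5-fold under these settings were not computed. These counts therefore cannot be read as a trait of the members. The member median ran from -0.21 with Cy3 only to 0.05 with Cy5 only, and was -0.03 with median centring. No setting reversed the sign of the 6 probes called with the main settings. Probes called with 1 dye order alone could reverse. The Rpl12 probe was called lower with Cy3 only (-0.38 at 4/5 and -0.69 at 7/8 somites) and higher with Cy5 only (0.39 and 0.30). No paired analysis was possible because array numbers only name the repeats of 1 pair of pools per stage, so the stages share no numbered embryos or pools; the dye swap pairs above pair arrays within a stage.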
